A study of Mus musculus with 2 samples.

Results

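The genes described here are 10 immediate early genes: Fos, Fosb, Jun, Junb, Egr1, Atf3, Ier2, Zfp36, Dusp1 and Nr4a1. They were chosen by name, as textbook members of the class, with earlier results of these data known. Each has 1 row in the deposited gene tables, 10 of 43346 gene rows. All 10 had a mean of at least 10 counts and entered the comparison of 15921 genes. The tissue was the duodenum of adult C57BL/6J mice aged 8 weeks, pooled from male and female littermates. No treatment, genotype or time course was labelled, so the study holds 1 group of 2 libraries, called replicate 1 and replicate 2 after the numbers in the labels. The labels number them as biological replicates, with 1 donor entry and different tissue entries. They do not say whether separate animals were used, so a difference between these samples may be technical in part. The tests cover counting error only and do not measure the spread between samples.

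Immediate early genes are switched on within minutes of a stimulus by transcription factors that are already in the cell, without new protein synthesis. Growth factors, stretch and injury act on them, largely through MAP kinases, serum response factor and the cyclic AMP response element binding protein. Their mRNAs are short-lived, and several of their products shut the response down again. In the gut they are known to respond to epidermal growth factor ligands, wounding and feeding.

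Depth was alike: replicate 1 held 44977004 expected counts with its spike-ins, and replicate 2 held 45438504. Over all tested genes, 26.1% differed between the libraries by at least 2-fold at an adjusted p under 0.05. Such a call needed an exact two-sided binomial test on expected counts scaled by TMM in edgeR, with Benjamini-Hochberg adjustment over all genes. With 1 group, this compares these 2 libraries and covers counting error only. The markers of the duodenal lining were present in both, with sums of 13040 TPM (the level per transcript length) and 27804 TPM over 10 enterocyte genes. Markers of the exocrine pancreas, and of the stomach and Brunner gland, stood apart. The 12 exocrine pancreas genes summed to 84426 TPM in replicate 1 and to 1215 TPM in replicate 2. The 9 stomach and Brunner gland genes summed to 24911 and 89.9 TPM. A larger sum for such genes lowers the TPM of every other gene in the same library. The count and median of the 10 genes are therefore also given from TPM rescaled without these 2 lists, an alternative added after the data had been seen.

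All 10 genes were detected in both libraries, and 7 had at least 10 TPM in each. Their TPM summed to 442.84 in replicate 1 and to 1073.77 in replicate 2, which was 0.0443% and 0.107% of all TPM. Fos, Zfp36 and Junb made up 71.2% of that sum in replicate 1 and 80.1% in replicate 2. By mean TPM the order was Zfp36, Junb, Fos, Jun, Ier2, Dusp1, Atf3, Egr1, Nr4a1 and Fosb. Over the 2 libraries the ranges of the values overlapped in 7 of 9 neighbouring pairs, all but Ier2 over Dusp1 and Nr4a1 over Fosb. Within each library the order held in both for 4 of the 9 pairs: those 2, Fos over Jun and Dusp1 over Atf3. The leading gene differed between the libraries, Junb in replicate 1 and Fos in replicate 2.

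**Figure D1:**
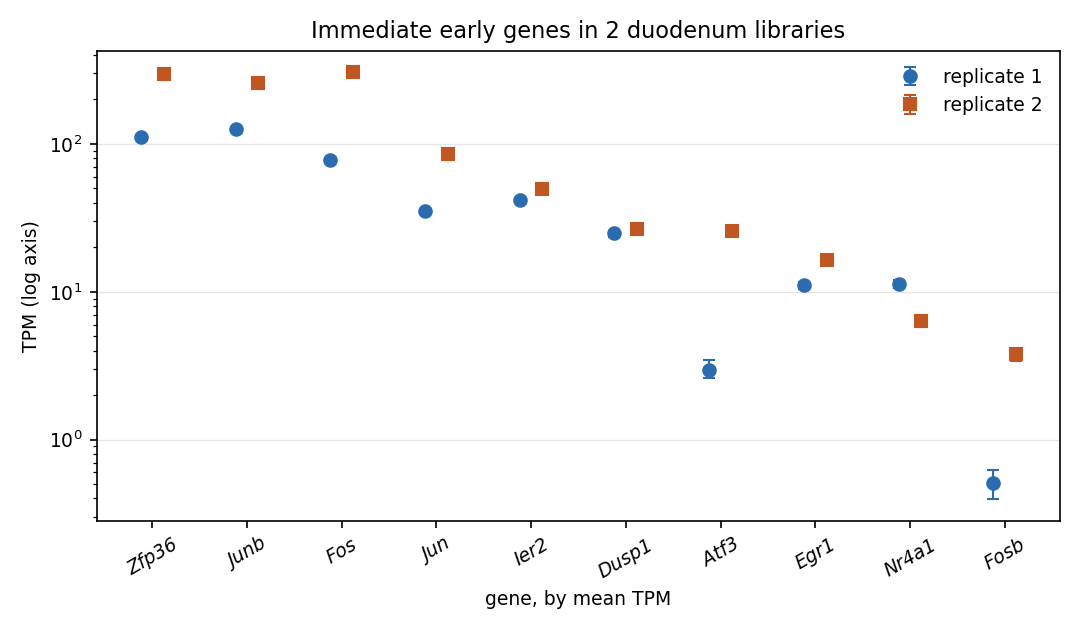
TPM of each immediate early gene (log axis) in replicate 1 (circles) and replicate 2 (squares), with the bounds on TPM that the authors deposited as whiskers where these are wider than the symbol. Nr4a1 is the gene that lies higher in replicate 1, and Atf3 and Fosb show the widest gaps.

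Of the 10 genes, 6 were called higher in replicate 2: Fos, Fosb, Jun, Junb, Atf3 and Zfp36. The share of all tested genes called in that direction was 11.5%. None was called higher in replicate 1, against 14.6% of tested genes, and 4 (Ier2, Dusp1, Egr1 and Nr4a1) did not reach 2-fold. The log2 ratio, with replicate 2 as the numerator, had a median of 1.32 over the 10 genes and of -0.04 over all tested genes. Scaling by total gene counts moved the median of all genes to -0.24 and that of the 10 genes to 1.08. Of the 10 genes 5 were then called higher in replicate 2, against 7.93% of all. With TPM rescaled without the pancreas and stomach lists, the median was 0.99 for the 10 genes and -0.28 for all genes. Of the 10 genes 5 lay at least 2-fold higher in replicate 2, against 5.66% of all. In a bulk sample such a difference can come from more cells with the mRNA or from more mRNA per cell, and these cannot be told apart. Folds here and below are of scaled counts, replicate 2 over replicate 1 unless stated, with exact 95% Clopper-Pearson intervals that cover counting error only.

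**Figure D2:**
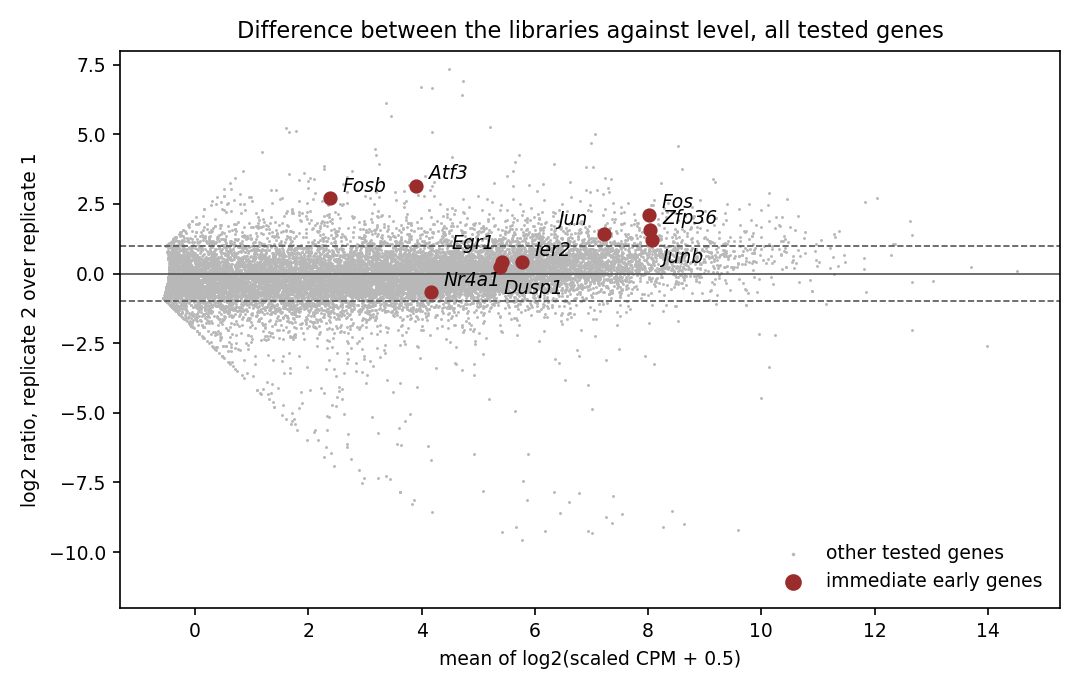
Log2 ratio of scaled counts, replicate 2 over replicate 1, against the mean log2 level for all 15921 tested genes (grey) and the 10 immediate early genes (red), with dashed lines at 2-fold. The 6 called genes lie above the upper line at levels from low (Fosb) to high (Zfp36, Junb, Fos), and Nr4a1 lies below 0.

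AP-1 is a dimer of a Fos protein with a Jun protein, or of 2 Jun proteins, and Fos, Fosb, Jun and Junb were all called higher in replicate 2. Fos, the partner that cannot pair with itself (chr12:85473890-85477273, plus strand), had 78.24 TPM in replicate 1 and 304.58 TPM in replicate 2. Replicate 2 was thus the high library, 4.35-fold above replicate 1 (interval 4.22 to 4.47). This took Fos from the 93.0 to the 97.8 percentile of protein-coding genes. Fosb, its slower relative (chr7:19302696-19310051, minus strand), lay far lower, at 0.51 TPM and 3.77 TPM. These rest on 74 and 528 counts, a difference of 8.32-fold (interval 6.52 to 10.8). Even so, the level of Fosb was 0.652% of that of Fos in replicate 1 and 1.24% in replicate 2.

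Jun, which can pair with itself (chr4:95049034-95052222, minus strand), had 35.26 TPM in replicate 1 and 85.11 TPM in replicate 2. The 2.71-fold difference (interval 2.61 to 2.80) was smaller than that of Fos, and the ratio of Fos to Jun TPM was 2.22 in replicate 1 and 3.58 in replicate 2. An antisense gene, Junos, overlaps Jun on the other strand, but it held only 10 and 5 counts. Junb, a weaker activator than Jun (chr8:84974484-84978718, minus strand), had 125.8 TPM and 260.14 TPM. Its 2.30-fold difference (interval 2.24 to 2.36) was the smallest of the 6 called. It fell under 2-fold when libraries were scaled by total gene counts (log2 ratio 0.96) or by ERCC spike-ins (0.96).

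Relatives of these genes also encode partners of AP-1, of which only the mRNA was measured here. Jund, the Jun gene that cells express without a stimulus, had 355.46 TPM in replicate 1 and 1003.33 TPM in replicate 2. It was thus more abundant than Jun and Junb together, with 68.8% and 74.4% of the Jun side, and it differed as they did, by 3.16-fold. On the Fos side, Fosl2 had 22.74 and 26.16 TPM and was not called. Fosl1 had 1.09 and 0.29 TPM and was 3.43-fold higher in replicate 1. Fos therefore held 76.3% of the Fos side in replicate 1 and 91.0% in replicate 2. Jun-side mRNA exceeded Fos-side mRNA in both libraries: the Fos side summed to 102.58 and 334.8 TPM and the Jun side to 516.52 and 1348.58 TPM.

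**Figure D3:**
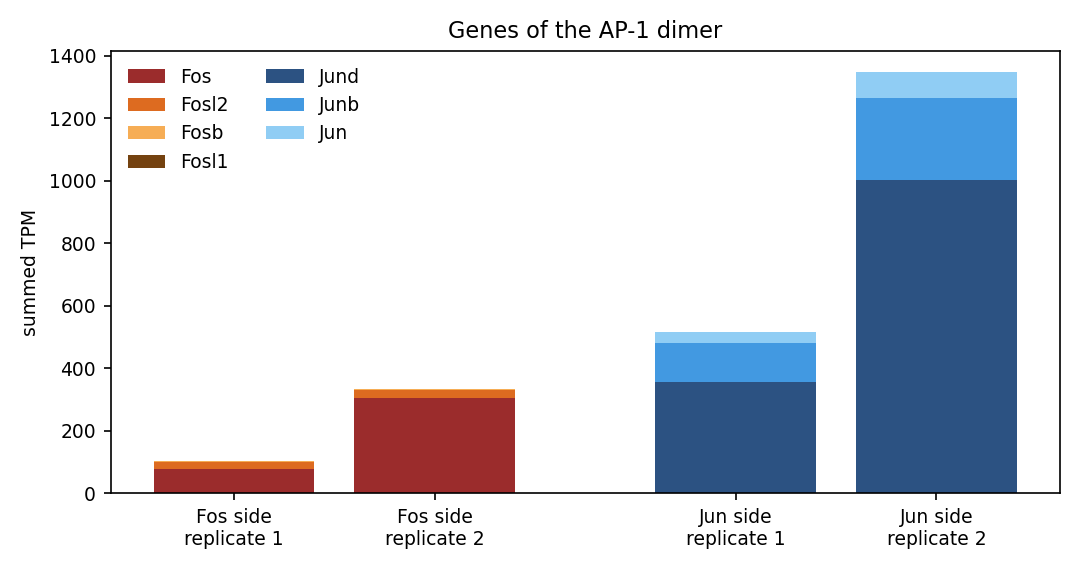
Summed TPM of the Fos-side genes (Fos, Fosl2, Fosb, Fosl1) and the Jun-side genes (Jund, Junb, Jun) in each library, with 1 bar per library and side. Both sides are taller in replicate 2, Fos makes up most of the Fos side and Jund most of the Jun side.

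Atf3 encodes a stress-induced relative of the AP-1 proteins that often represses its targets (chr1:191170296-191218039, minus strand). Its level was 2.95 TPM in replicate 1 and 25.9 TPM in replicate 2. The difference, 9.77-fold (interval 8.49 to 11.3), was the largest of the 10 and moved Atf3 from the 56.5 to the 83.3 percentile of protein-coding genes. All of its reads were assigned to the transcript Atf3-201 in both libraries, and the other 2 listed transcripts were at 0.

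Ier2, a small nuclear protein gene with 1 exon (chr8:84661331-84662852, minus strand), differed little: 41.62 TPM in replicate 1 and 49.95 TPM in replicate 2. The 1.33-fold difference (interval 1.26 to 1.41) exceeds counting error but not the 2-fold limit. Nr4a1 encodes an orphan nuclear receptor (chr15:101254269-101274795, plus strand). It went the other way, with 11.38 TPM in replicate 1 and 6.38 TPM in replicate 2. This is 1.59-fold higher in replicate 1 (interval 1.44 to 1.77), again under the limit. Its relative Nr4a2 (5.13 and 1.51 TPM) was called 2.69-fold higher in replicate 1. Nr4a3 had 1.57 and 0.89 TPM and was not called.

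Egr1, a zinc finger activator (chr18:34859823-34864984, plus strand), had 11.11 TPM in replicate 1 and 16.34 TPM in replicate 2. As a gene it was not called, at 1.35-fold (interval 1.26 to 1.44). Its 2 annotated transcripts differed in opposite directions. Egr1-201, the longer at 4484 bases, had 7.63 TPM in replicate 1 and 3.24 TPM in replicate 2. Egr1-202, at 3036 bases, had 3.48 TPM and 13.1 TPM. The share of Egr1-202 in the gene was 31.3% in replicate 1 and 80.2% in replicate 2. The bounds on TPM in the authors' deposited table did not overlap for either transcript: 7.05 to 8.14 against 2.86 to 3.60 for Egr1-201, and 2.80 to 4.08 against 12.2 to 13.8 for Egr1-202. These bounds were computed within each library and do not describe the spread between animals.

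Both Egr1 transcripts hold the same 1599 coding bases before the stop codon, so the shares concern the untranslated ends. Egr1-201 starts 1384 bases upstream of Egr1-202. Egr1-202 has in addition an intron of 36 bases in the stretch before the coding sequence. Reads from the shared exons carry no information on which transcript they came from, so the shares rest on the upstream stretch, the short intron and the 3′ end. The leading transcript was the same in both libraries for 9 of 10 genes, with over 90% of the gene's TPM in each. Of these, 6 have 1 listed transcript, so theirs could not differ. Among the genes with more than 1, Egr1 was the exception, while Atf3, Dusp1 and Fos kept the same leading transcript. Fos-201, the coding transcript of Fos, held 95.2% in both libraries, and the processed transcript Fos-203 held 4.16% and 4.69%.

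**Figure D4:**
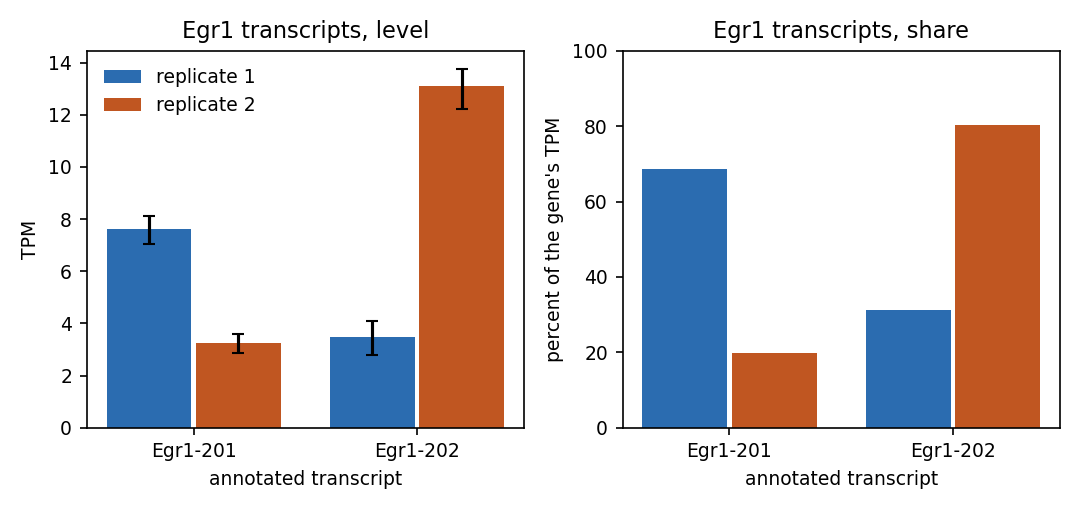
TPM of the 2 annotated Egr1 transcripts (left, with the bounds deposited by the authors) and their share of the gene's TPM in percent (right) in each library. Egr1-201 leads in replicate 1 and Egr1-202 in replicate 2.

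Zfp36 and Dusp1 act to end the response, and they differed unequally. Zfp36 encodes tristetraprolin, which binds AU-rich stretches of mRNA and speeds their decay (chr7:28376784-28380253, minus strand). Its level was 111.17 TPM in replicate 1 and 295.14 TPM in replicate 2. Replicate 2 was again the high library, by 2.95-fold (interval 2.87 to 3.04). Of its relatives, Zfp36l1 had 112.51 and 70.58 TPM and Zfp36l2 had 173.29 and 166.98 TPM. Neither was called. Zfp36 therefore held 28.0% of the family's TPM in replicate 1 and 55.4% in replicate 2. An antisense gene, Gm44710, overlaps 1080 bases of the Zfp36 span, and the use of strand in counting is not stated in the sources.

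Dusp1, a phosphatase that inactivates MAP kinases, was the steadiest of the 10. Its leading transcript Dusp1-202 lies at chr17:26505590-26508519, minus strand. The gene had 24.8 TPM in replicate 1 and 26.46 TPM in replicate 2. The 1.18-fold difference (interval 1.10 to 1.26) changed sign with the scaling, to a log2 ratio of -0.0016 with total gene counts. Transcripts with a retained intron took 4.25% and 1.61% of its TPM in replicate 1 and 5.06% and 3.44% in replicate 2. Of its relatives in the same family, Dusp6 and Dusp2 were called higher in replicate 2. Dusp6, specific for ERK, had 16.58 and 51.42 TPM, a 3.47-fold difference. Dusp2 had 1.37 and 8.5 TPM, a 6.90-fold difference.

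Tristetraprolin binds the nonamer UUAUUUAUU (TTATTTATT as DNA), and 3 of the 10 genes hold it in the 3′ UTR of their leading transcript: Fos, Dusp1 and Zfp36 itself. Among tested protein-coding genes with an annotated 3′ UTR, 6.55% (801 of 12234) hold it. The 4 sites are shown since the decay factor is itself encoded by a member of the class. They are written with 10 bases on each side, as DNA from 5′ to 3′ on the strand of the gene, with the nonamer in capitals.
Fos, chr12:85477103-85477131: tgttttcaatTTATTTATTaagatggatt
Dusp1, chr17:26506159-26506187: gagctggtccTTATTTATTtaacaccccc
Dusp1, chr17:26505870-26505898: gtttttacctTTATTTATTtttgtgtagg
Zfp36, chr7:28376951-28376979: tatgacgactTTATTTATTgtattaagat
The genes with the nonamer included the called Fos and Zfp36 and the uncalled Dusp1. Over all genes with it, the median log2 ratio was -0.15, and 6.87% were called higher in replicate 2. The shorter pentamer AUUUA occurred at least 3 times in the 3′ UTR of 6 of the 10 genes, against 29.0% of all. A match is a description of sequence and not a measured binding site.

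The stretch just upstream of the start site was available from RefSeq (GRCm38.p6) for 8 of the 10 genes. It was searched on both strands from 250 bases before to 50 bases after the start for TGACG, the core of the cyclic AMP response element. TGACG, or CGTCA on the other strand, occurred in 6 of the 8: Atf3, Dusp1, Fos, Fosb, Junb and Nr4a1. Of all 32851 promoters of the same length in the table, 20.8% hold it. The full element TGACGTCA, which contains the shorter core on each strand, occurred in Dusp1 alone among the 8 and in 1.79% of all. The CArG box, to which serum response factor binds, occurred within this stretch in Zfp36 alone among the 8 and in 1.63% of all. Sites further upstream were not searched, and Egr1 and Ier2 were the genes without an entry, so absence of a match is not absence of a site. Shown are the 250 bases before the RefSeq start site of 4 genes, 5′ to 3′ on the strand of the gene, with these matches in capitals. They were chosen to set the called Fos and Junb beside the uncalled Dusp1 and Nr4a1.
Fos, chr12:85473640-85473889: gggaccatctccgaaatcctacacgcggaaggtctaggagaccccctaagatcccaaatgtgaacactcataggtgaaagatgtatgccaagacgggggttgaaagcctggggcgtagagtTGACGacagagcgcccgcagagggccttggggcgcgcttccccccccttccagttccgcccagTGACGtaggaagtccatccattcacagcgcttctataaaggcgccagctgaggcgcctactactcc
Junb, chr8:84978749-84978998: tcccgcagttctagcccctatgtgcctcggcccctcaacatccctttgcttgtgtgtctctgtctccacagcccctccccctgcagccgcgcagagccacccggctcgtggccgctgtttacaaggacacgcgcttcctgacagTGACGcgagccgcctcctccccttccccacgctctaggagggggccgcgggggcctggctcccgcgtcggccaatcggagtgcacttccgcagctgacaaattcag
Dusp1, chr17:26508473-26508722: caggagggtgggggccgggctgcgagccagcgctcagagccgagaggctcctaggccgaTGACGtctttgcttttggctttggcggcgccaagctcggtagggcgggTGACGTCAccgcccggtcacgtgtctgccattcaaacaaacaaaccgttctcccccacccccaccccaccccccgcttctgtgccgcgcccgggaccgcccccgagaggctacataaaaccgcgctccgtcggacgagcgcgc
Nr4a1, chr15:101266596-101266845: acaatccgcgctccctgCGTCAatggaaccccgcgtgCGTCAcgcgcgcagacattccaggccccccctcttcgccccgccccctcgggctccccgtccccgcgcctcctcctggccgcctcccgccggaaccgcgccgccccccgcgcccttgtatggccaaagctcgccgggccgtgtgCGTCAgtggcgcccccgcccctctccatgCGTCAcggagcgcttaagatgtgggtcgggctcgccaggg
The RefSeq start is not always that of the GENCODE entry. The Nr4a1 stretch lies inside the gene position given above and ends just before its transcript Nr4a1-201. The Dusp1 stretch overlaps the first bases of Dusp1-202. Fos has 2 matches to TGACG, the nearer at positions -66 to -62 from the start. Nr4a1 has 4, the nearest at -40 to -36, and Dusp1 has 3, of which 2 overlap within the full element. Junb has 1, at -106 to -102. The CArG box of Zfp36 lies at -58 to -49 from a RefSeq start that is inside the GENCODE gene position given above. Genes with the core were found among those called higher in replicate 2 (Atf3, Fos, Fosb, Junb) and among those not called (Dusp1, Nr4a1).

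The 10 genes are compact, and the comparison between the libraries varied with gene structure. Their leading transcripts had a median of 3.5 exons and spanned a median of 3427 bases of genome, against 7 exons and 16781 bases over 14426 tested protein-coding genes. At most 4 exons were present in 9 of the 10, against 31.2% of all. Mature length hardly differed, with medians of 2292.5 and 2339 bases. These lengths are from GENCODE M21, and for Fosb, Junb, Nr4a1 and Zfp36 they differ from those the authors counted with. For Zfp36 the lengths are 2790 bases in M21 and 1792 bases as counted. GC content was 55.2% against 52.2%. Over all genes, those with 1 exon had a median log2 ratio of 0.21 and those with over 4 exons -0.06. Jun, Junb and Ier2 are genes with 1 exon, and 22.8% of such genes were called higher in replicate 2. The median log2 ratio also went from -0.23 in the lowest decile of genes by GC content to 0.19 in the highest. The part of exon number and GC content in the differences of the 10 genes was not tested.

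**Figure D5:**
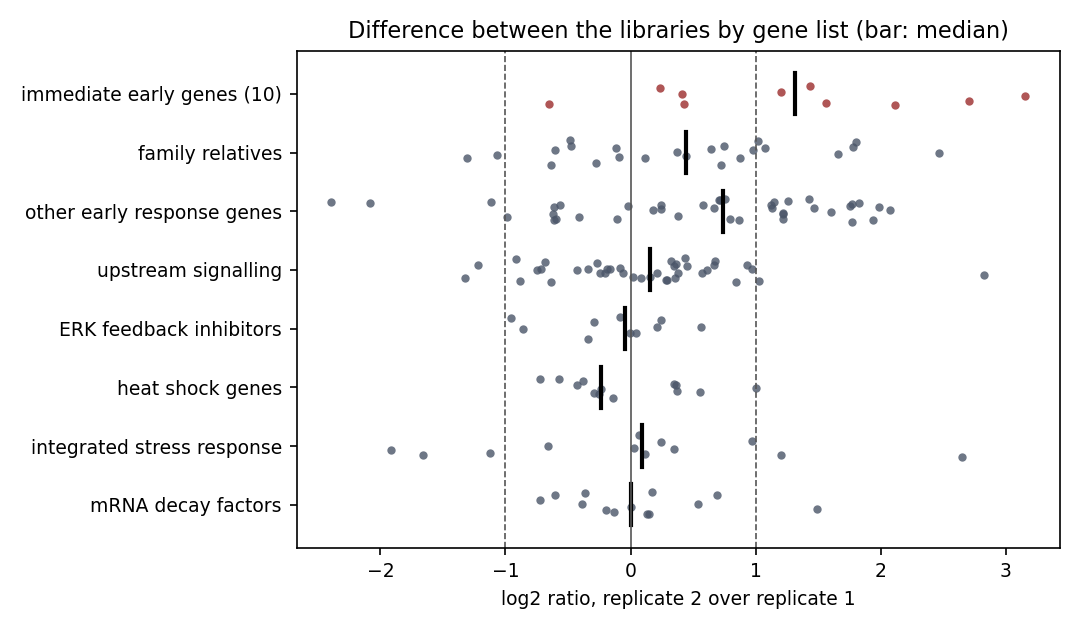
Log2 ratio of scaled counts, replicate 2 over replicate 1, for each tested gene of the immediate early genes (red) and of 7 related lists (grey), with the list median as a bar and dashed lines at 2-fold. The immediate early genes, the other early response genes and the family relatives lie mostly to the right of 0, with medians of 1.32, 0.74 and 0.45. The medians of the remaining lists lie between -0.24 and 0.16.

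Other genes that respond early to stimuli were listed from textbook knowledge, also with earlier results known. There were 42 in all, of which 40 were tested. Calls went to replicate 2 for 18 of these and to replicate 1 for 4, with a median log2 ratio of 0.74. The shares over all tested genes were 11.5% and 14.6%. With scaling by total gene counts the calls were 12 and 4, against 7.93% and 20.0% of all genes. The largest differences towards replicate 2 were in Cebpb, a bZIP activator of acute phase genes (194.08 and 738.82 TPM, 4.22-fold), Maff, a small Maf factor (5.06 and 18.9 TPM, 4.16-fold), and Sgk1, a kinase induced by serum and glucocorticoids (14.87 and 46.89 TPM, 3.89-fold). Early genes were not uniformly higher there. Arc was 6.50-fold higher in replicate 1 (4.53 and 0.62 TPM), as were the matricellular gene Ccn2 (48.33 and 9.64 TPM, 4.31-fold) and the prostaglandin synthase Ptgs2 (0.41 and 0.12 TPM, 2.94-fold). The chemokine gene Ccl2 (4.19 and 1.35 TPM, 2.92-fold) was the remaining call in that direction. Id1, the most abundant of the list, had 414.91 and 567.45 TPM and was not called.

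Among 23 tested relatives of the 10 genes, 7 were called higher in replicate 2 and 2 in replicate 1. Their median log2 ratio was 0.45. Of all tested genes 11.5% and 14.6% were called in these directions. The largest differences towards replicate 2 were those of Dusp2, Ier5 (22.52 and 70.3 TPM, 3.50-fold) and Dusp6, and the 2 calls towards replicate 1 were Fosl1 and Nr4a2. Total gene counts as the scale gave 5 and 4 calls, since Batf3 and Ier5l left the first group and Batf and Nr4a3 joined the second. That scaling called 7.93% and 20.0% of all genes.

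In the pathway that switches these genes on, 39 receptors, ligands, kinases and transcription factors were tested. Of these, 2 were called higher in replicate 2 and 2 in replicate 1, against 11.5% and 14.6% of all genes. Hbegf, a membrane-bound ligand of the epidermal growth factor receptor, had 2.81 and 19.31 TPM and was 7.68-fold higher in replicate 2. Erbb2, a receptor of the same family, had 53.35 and 82.15 TPM, which is 2.05-fold in scaled counts. The Erbb2 call was lost with total gene counts (log2 ratio 0.79). Egf (0.46 and 0.09 TPM) was 4.34-fold and Braf (4.75 and 1.33 TPM) 2.70-fold higher in replicate 1. The most abundant were Map2k2 (575 and 961.75 TPM) and Mapk3 (367.19 and 513.03 TPM), neither called. The median log2 ratio of 0.16 changed sign with total gene counts, to -0.08, and the calls became 1 and 6, against 7.93% and 20.0% of all genes with that scaling. None of 10 feedback inhibitors of ERK signalling was called by the binomial test with the 2-fold limit, against 26.1% of all genes in either direction. With total gene counts, Lrig1 and Spry4 of the 10 were called higher in replicate 1, against 20.0% of all genes. The most abundant were Lrig1 (32.15 and 14.78 TPM) and Spred2 (11.79 and 11.33 TPM).

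Stress programmes share inducers with the immediate early genes. Of 13 heat shock genes, 1 was called, against 26.1% of all genes in either direction. It was the co-chaperone Dnajb1 (16.82 and 30.43 TPM), 2.02-fold higher in replicate 2, a call that was lost with total gene counts (log2 ratio 0.77). The most abundant heat shock genes, the chaperones Hspa8 (1199.99 and 816.92 TPM) and Hspb1 (125.87 and 170.22 TPM), were not called. Of 12 integrated stress response genes, 3 were called in each direction, against 11.5% (replicate 2) and 14.6% (replicate 1) of all genes. Trib3 (4.69 and 29.74 TPM, 6.91-fold), Herpud1 (2.30-fold) and Ddit3 (2.02-fold) were higher in replicate 2. Vldlr (4.57-fold), Chac1 (3.82-fold) and the chaperone gene Hspa5 (747.16 and 291.1 TPM, 2.18-fold) were higher in replicate 1. With total gene counts, Trib3 alone of the first 3 was still called. Of 13 genes listed for the decay of AU-rich mRNA, decay factors and regulators together, 1 was called, against 26.1% of all genes in either direction. This was Hnrnpd (35.2 and 83.8 TPM), 2.89-fold higher in replicate 2. The next most abundant of the list, the kinase gene Mapkapk2, had 45.87 and 66.38 TPM and was not called.

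Other cells in the tissue could carry these mRNAs, and the markers of several cell types differed too. The counts below stand against 11.5% of all tested genes called higher in replicate 2 and 14.6% in replicate 1. Red blood cell genes summed to 1450 TPM in replicate 1 and to 5574 TPM in replicate 2, with all 5 called higher in replicate 2. All 5 adipocyte genes were called in that direction as well, with sums of 13.8 and 381 TPM. Of 5 T lymphocyte genes 4 were called higher in replicate 2 (12.3 and 27.7 TPM), and of 6 myeloid genes 3 (130 and 228 TPM). Of 10 enterocyte genes 7 were called higher in replicate 2 and 1 in replicate 1, and of 6 goblet cell genes 5 were called higher in replicate 2 (9769 and 24924 TPM). None of 5 endothelial genes (41.8 and 61.6 TPM) and none of 6 fibroblast genes (123 and 77.3 TPM) was called by the same test. No marker in the lists of this paragraph so far was at 0 in either library. Smooth muscle genes summed to 1831 and 1242 TPM, with 2 of 6 called higher in replicate 1. Paneth cell genes summed to 1887 and 4264 TPM, with 4 of 5 called higher in replicate 2. Enteroendocrine genes (837 and 1572 TPM) had 1 of 6 called higher in replicate 2. B and plasma cell genes (16391.5 and 17597.3 TPM) had 1 of 5 tested called in that direction. Called higher in replicate 1 were 1 of 5 stem and cycling crypt genes (210 and 148 TPM) and 2 of 6 neuron and glia genes (31.0 and 30.4 TPM). In the mast cell list 3 of 4 tested genes were called higher in replicate 1 (20.8 and 9.87 TPM), and Cpa3 was at 0 counts in replicate 2, which allows up to 0.0671 CPM. The part of these cell types in the differences of the immediate early genes was not tested. When TPM was rescaled without the pancreas and stomach lists, the log2 ratio was 1.79 for Fos, 2.80 for Atf3 and 0.88 for Junb, so that Junb lay under 2-fold.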

How the data were processed

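Poly(A)+ RNA of over 200 nucleotides, depleted of ribosomal RNA, from 2 duodenum libraries was read as stranded pairs, per the labels. The authors used mm10 and GENCODE M4 plus spike-in sequences, per the text files deposited beside the tables. The sources do not name the quantifier, its version or its use of strand. Gene and transcript tables hold expected counts, estimated by the authors and not normalised, per the file headers. Their TPM, as deposited, is relative to transcript length and sums to 1000000 per library. The deposited isoform percent is a transcript's share of its gene's TPM, per the file headers. The bounds on TPM are a deposited signal that the authors computed, and they entered no test.

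Rounded expected counts were scaled by TMM (edgeR 4.0.16, R 4.3.3). Genes needed a mean of 10 counts or more. Each gene was compared between the libraries by an exact two-sided binomial test, with Benjamini-Hochberg adjustment over all 15921 genes. A call needed an adjusted p under 0.05 and 2-fold. The edgeR quasi-likelihood test needs a contrast between groups, and there is 1 group. Log2 ratios are of scaled CPM plus 0.5, which understates low genes. A count of 0 allows up to 3 counts, or 0.0678 CPM in replicate 1 and 0.0671 CPM in replicate 2. Reads carry no molecular identifiers. The procedure was tested on simulated data.

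The 10 genes and all lists were chosen with earlier results of these data known. Named genes were the 10, and of each pathway list the called genes or the 3 largest calls in each direction, and the 2 most abundant. Gene structures came from GENCODE M21 (GRCm38) and promoters from RefSeq. Alternatives were DESeq2 1.42.0 size factors, total gene counts, ERCC totals, posterior mean counts, TPM plus 0.5, no count filter, and limits of 1.5-fold and 3-fold. Splice junction and contig lists in mm9 coordinates were not used. Computations used Python 3.11.15, numpy 2.4.6, pandas 2.3.3 and scipy 1.17.1, and plots matplotlib 3.10.9.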

Additional observations from a re-analysis of the deposited data

How the results depend on the processing

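Of 70 log2 ratios of single genes (10 genes under 7 alternatives), 64 kept their direction and their side of the 2-fold limit. Junb lost its call 3 times. Dusp1, which was never called, changed sign 3 times: its log2 ratio was -0.0016 with total gene counts, -0.0073 with ERCC totals and -0.0716 with TPM rescaled without the pancreas and stomach lists. The count of genes higher in replicate 2 was 5 under each of those 3 scalings, against 7.93%, 7.90% and 5.66% of all tested genes. At 1.5-fold 1 gene (Nr4a1) was called higher in replicate 1, against 24.1% of all. At 3-fold 3 genes (Fos, Fosb and Atf3) were called higher in replicate 2, against 5.22% of all. The median of the 10 genes ranged from 0.99 to 1.35. Of the other early response genes, 18 were higher in replicate 2, against 12 with total gene counts or ERCC totals and 10 with the rescaled TPM. Of all calls, 44.1% were higher in replicate 2, against 28.4% with total gene counts, 28.2% with ERCC totals and 46.3% with DESeq2 size factors. Leaving out 1 library at a time gave summed TPM from 442.84 to 1073.77, 8 genes at 10 TPM or more in both cases, and 4 to 7 genes in the place they hold by the mean. No paired analysis was possible because the libraries form 1 group. Counting error is small for all but Fosb and Atf3 in replicate 1, which rest on 74 and 217 counts, and the spread between animals is not measured.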
